A study of Mus musculus with 686 samples.

Results

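Heart was compared with diaphragm, the sheet of skeletal muscle that drives breathing, in the ground mice of the Live Animal Return (LAR) arm of a spaceflight study. The members were chosen by label: every ground LAR library of either tissue, 36 of the 686 small RNA libraries of the series, 16 from heart and 20 from diaphragm. All mice were female, of the inbred strain BALB/cAnNTac, and aged 3 or 8 months. The labels name no transgene, and none of these mice had flown. The habitat ground control (HGC, 6 heart and 10 diaphragm libraries) lived at double density in the habitat units of the flight mice, with temperature, humidity and carbon dioxide set to the flight record, and the vivarium ground control (VGC, 10 and 10) lived in standard cages. LAR tissues were taken and frozen within minutes of death, after the blood had been drawn from the heart. The direction of each difference was then looked up in 38 ground libraries of the TERM arm (19 heart, 19 diaphragm), from other mice, whose carcasses were frozen whole and thawed before dissection. The question was which small RNAs of any class separate a cardiac from a skeletal muscle of the same body.

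Both tissues are striated muscle and share the abundant muscle miRNAs of the miR-1 and miR-133 families. A second group of muscle miRNAs lies in introns of myosin heavy chain genes and is made with the myosin: miR-208a in Myh6, the main myosin of the adult mouse ventricle, miR-208b in Myh7, the slow myosin, and miR-499 in Myh7b. miR-206, transcribed together with miR-133b, is the miRNA best known for being made in skeletal muscle and not in the heart. Whole tissue was sequenced, so fewer cells of a type and less RNA per cell cannot be told apart in any of the values given here.

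The mature sequences of the miRNAs on which the comparison turned are printed here from RefSeq (GRCm38.p6), 5′ to 3′, with the seed, bases 2 to 8, in capitals. The myosin-hosted miRNAs come first because they were the heart group, and because miR-208a-3p and miR-208b-3p have 1 seed and differ in 3 bases (G10A, A16G and C18U, counted from the 5′ end, with the base of miR-208a first):
miR-208a-3p: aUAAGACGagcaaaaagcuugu
miR-208b-3p: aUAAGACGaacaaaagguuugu
miR-499-5p: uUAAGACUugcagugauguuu
They are followed by the pair from the skeletal muscle locus, which have no seed in common:
miR-206-3p: uGGAAUGUaaggaagugugugg
miR-133b-3p: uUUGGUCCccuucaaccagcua
The next set holds the arms of Mir675 and Mir483, which lie in the imprinted genes H19 and Igf2 and were higher in diaphragm, and both arms of Mir490, which were higher in heart:
miR-675-5p: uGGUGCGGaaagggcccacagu
miR-675-3p: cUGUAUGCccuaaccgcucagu
miR-483-5p: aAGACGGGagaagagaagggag
miR-483-3p: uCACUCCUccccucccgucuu
miR-490-3p: cAACCUGGaggacuccaugcug
miR-490-5p: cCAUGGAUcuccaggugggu
The last set shows miRNAs from the Hox clusters, of which miR-10a-5p and miR-10b-5p have 1 seed, and a pair from the X chromosome:
miR-10a-5p: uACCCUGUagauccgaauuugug
miR-10b-5p: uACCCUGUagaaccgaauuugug
miR-615-3p: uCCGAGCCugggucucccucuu
miR-547-3p: cUUGGUACaucuuugagugag
miR-201-5p: uACUCAGUaaggcauuguucuu

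On GRCm38.p6 the hairpin of miR-208a lay in an intron of Myh6 at chr14:54949060-54949142 and that of miR-208b in an intron of Myh7 at chr14:54975700-54975776, both on the minus strand. The hairpin of miR-499 lay in an intron of Myh7b at chr2:155622880-155622958 on the plus strand. miR-206 (chr1:20679010-20679082) and miR-133b (chr1:20682769-20682887) both overlapped an exon of the long non-coding RNA Gm28653 on the plus strand. miR-675 overlapped an exon of H19 (chr7:142577064-142577147) and miR-483 lay in an intron of Igf2 (chr7:142654924-142654996), both on the minus strand. miR-490 lay in an intron of Chrm2 (chr6:36421742-36421825, plus strand), the gene of the muscarinic receptor through which the vagus nerve slows the heart.

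Counts of 7 RNA classes were used: miRNA, piRNA, tRNA, snoRNA, snRNA, rRNA and lncRNA. Every level is given in CPM, the counts per 1000000 counts of its own class in the library, so a level is a share of its class and not an amount per cell. The 74 LAR and TERM libraries ranged in depth from 14866994 to 105017575 counts, all 7 classes added (median 43798276), and in miRNA counts from 795228 to 14883116 (median 4450910). Of 8 LAR mice both tissues were sequenced. A feature was called where the adjusted p of edgeR's quasi-likelihood test was under 0.05.

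Before any comparison the labels were checked against the marker miRNAs. In 4 of the 16 LAR libraries labelled heart, miR-206-3p was at or above miR-208a-3p, and in 1 of the 20 labelled diaphragm the order was also against the label. In 3 heart and 4 diaphragm libraries, muscle miRNAs made up under 10% of the miRNA counts, against medians of 28.3% and 37.0%. All these libraries belonged to 11 sequencing pools in which the miRNA profiles of several tissues had been found not to match their labels. Those pools held 4 of the 16 heart and 6 of the 20 diaphragm libraries of LAR, and 2 and 6 of those of TERM. Since the pools were picked by miRNA profile, the comparison without them is not an independent test of any miRNA, the markers among them. It is given beside the comparison of all libraries throughout. Without the pools, no LAR library went against its label: miR-208a-3p was at 306 to 1939 CPM in the 12 hearts and at 0.536 to 9.21 CPM in the 14 diaphragms, and miR-206-3p at 5.99 to 209 and 23874 to 112150.0 CPM. In TERM without the pools 1 heart library still held more miR-206-3p (1053 CPM) than miR-208a-3p, and 1 diaphragm library held under 10% muscle miRNA.

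**Figure D1:**
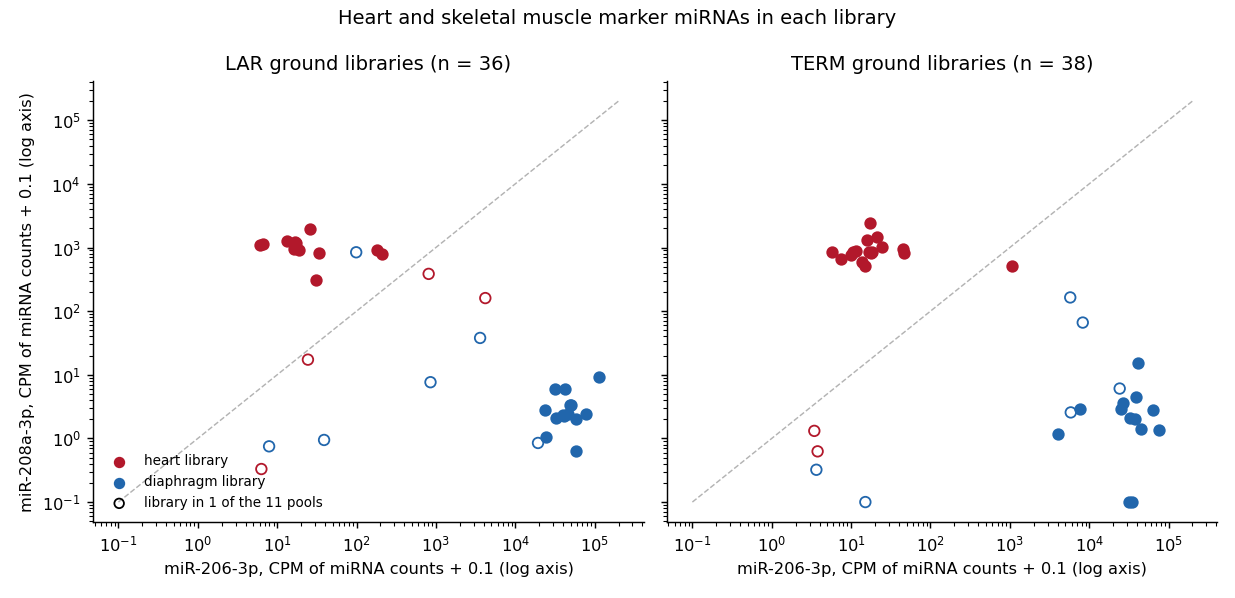
miR-208a-3p (y axis) against miR-206-3p (x axis) in every ground heart and diaphragm library, both in CPM of miRNA counts plus 0.1 on log axes, with LAR on the left and TERM on the right; the dashed line marks equal levels. Filled points, the libraries outside the 11 pools, form 2 separate clouds except for 1 TERM heart at 1053 CPM of miR-206-3p, while the open points of the pools scatter between and outside them.

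Many miRNAs differed between the tissues. With all LAR libraries, 178 of 1077 tested miRNAs (16.5%) were called, 81 higher in heart (7.52%) and 97 higher in diaphragm (9.01%). Without the 11 pools the count was 398 of 946 (42.1%), 182 higher in heart (19.2%) and 216 higher in diaphragm (22.8%). The median over all tested miRNAs was a log2 fold change (heart minus diaphragm) of 0.09, so the scale was nearly centred. The split between the directions depended on the scaling: 45.5% of calls were higher in heart with the class total, 58.2% of 273 with TMM factors, and 87.9% of 412 when miRNAs were scaled to the total of the 7 classes, where the median moved to 0.81. Restricted to the 8 mice that gave both tissues, with the animal as a block, 54 of 967 were called (5.58%), 30 higher in heart (3.1%) and 24 in diaphragm (2.48%). In TERM 372 of 1092 were called (34.1%), 69 in heart (6.32%) and 303 in diaphragm (27.7%), and without the pools 373 of 974 (38.3%), 109 (11.2%) and 264 (27.1%). The TERM split depended on the scaling as well and turned with it: the median over all tested miRNAs was -0.54 with the class total, and with the total of the 7 classes, where it was 0.20, 179 were higher in heart and 114 in diaphragm. With TMM factors and without the pools the TERM counts were 185 and 197. With all libraries, 0 miRNAs (0%) separated the LAR hearts from the LAR diaphragms. Without the pools 23 were above every diaphragm in every heart (2.43%) and 15 below (1.59%).

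The myosin-hosted miRNAs were the cardiac group: 4 of 5 tested were higher in heart in all LAR libraries (7.52% of all miRNAs were) and 5 of 5 without the pools (19.2%), with a median log2 fold change of 3.69 against 0.09 over all miRNAs. miR-208a-3p ranged in heart from 0.230 to 1939 CPM with a median of 914, and in diaphragm from 0.536 to 842 CPM with a median of 2.33. The ranges overlapped only through libraries of the 11 pools. The log2 fold change was 5.88 ± 1.08 (SE) with edgeR adjusted p = 0.000306, and 8.40 ± 0.37 without the pools. In TERM it was 5.91 ± 0.89, and 8.59 ± 0.48 without them. miR-208a-5p, the other arm of the hairpin, had a median of 32.9 CPM in heart and of 0 in diaphragm, with a log2 fold change of 5.08 ± 1.02 (edgeR adjusted p = 0.000523).

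miR-499-5p was present in both tissues and higher in heart. It ranged from 1.38 to 2667 CPM with a median of 1519 in heart, and from 0.651 to 1315 CPM with a median of 63.9 in diaphragm. The log2 fold change was 3.69 ± 0.72 (edgeR adjusted p = 0.000434) and 4.57 ± 0.29 without the pools, when every heart lay above every diaphragm, at 768 to 2667 CPM (median 1779) against 18.7 to 133 CPM (median 78.0). Its partner arm miR-499-3p gave 2.33 ± 0.61 (edgeR adjusted p = 0.008), a call lost with the library preparation plate as a term (adjusted p = 0.177). miR-208b-3p, hosted by the slow myosin that the diaphragm also makes, was the exception. Its log2 fold change was 1.04 ± 0.48 in all LAR libraries (edgeR adjusted p = 0.13) and 0.96 ± 0.24 without the pools (adjusted p = 0.00167). Its levels overlapped in both cases, 32.8 to 152 CPM (median 99.9) in heart and 15.6 to 56.1 CPM (median 42.7) in diaphragm without the pools. It was not called with the animal as a block and without the pools (adjusted p = 0.149). The remaining member of the list, miR-208b-5p, did not pass the detection filter.

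**Figure D2:**
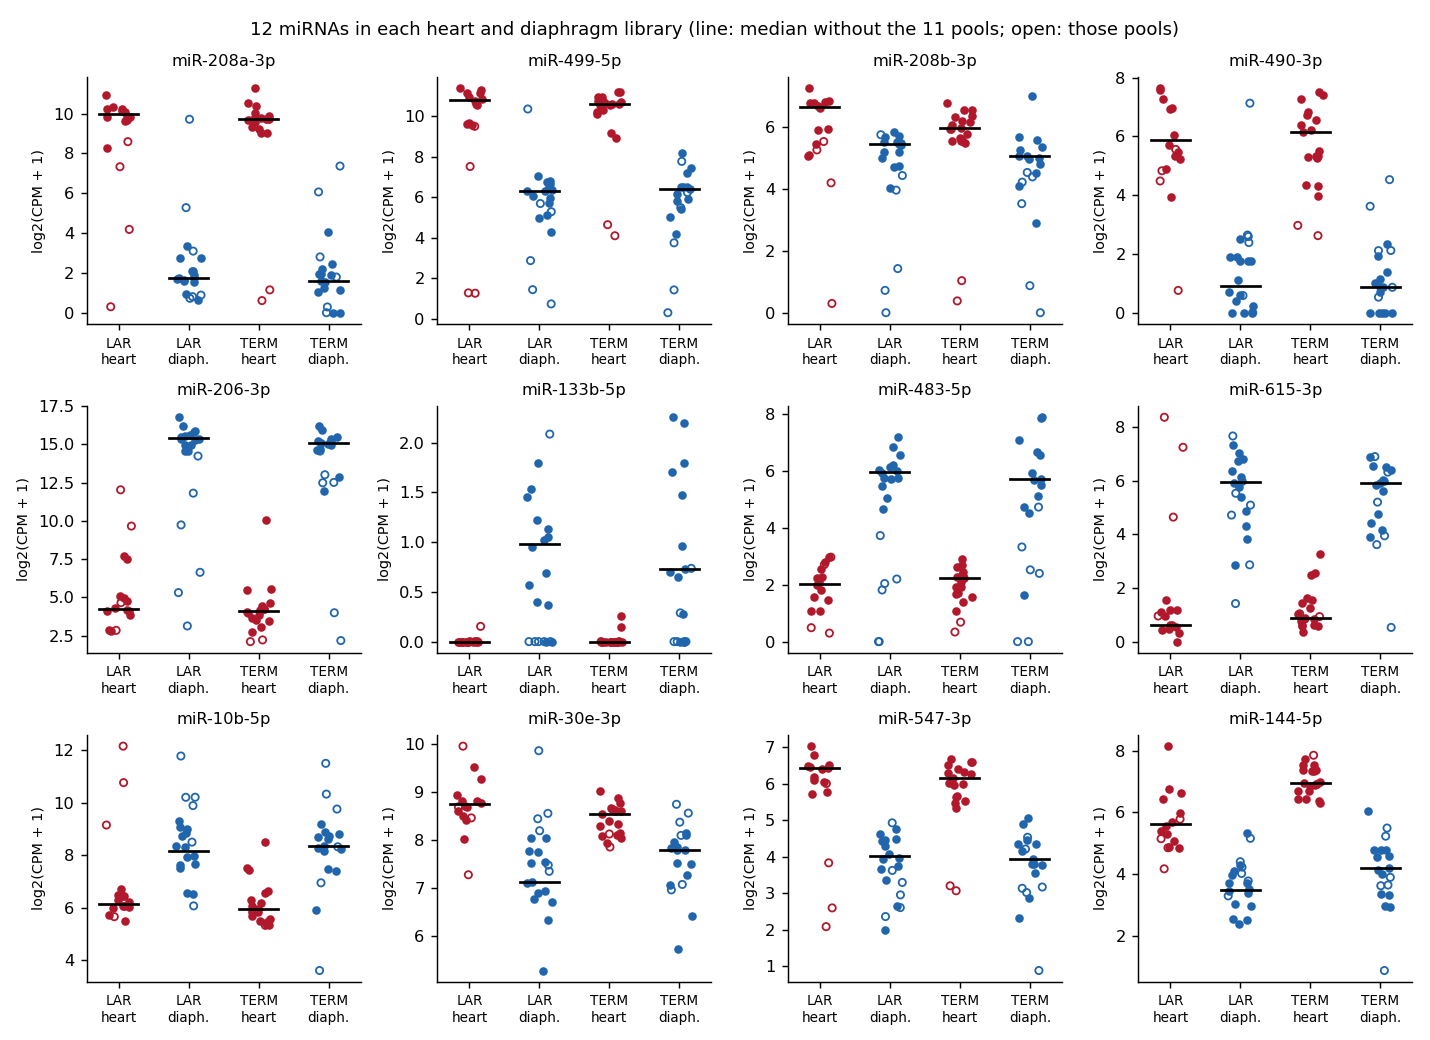
Levels of 12 miRNAs as log2(CPM + 1) in each LAR and TERM heart (red) and diaphragm (blue) library; open points are libraries of the 11 pools and the line is the median without them. miR-208a-3p, miR-499-5p, miR-490-3p, miR-206-3p and miR-615-3p show the widest gaps between tissues, whereas miR-208b-3p overlaps.

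Of the miR-1, miR-133 and miR-206 family members, 3 of 12 tested were higher in diaphragm and 0 in heart, and without the pools 7 of 11, where over all miRNAs 9.01% and 22.8% were higher in diaphragm. In TERM the counts were 3 of 11, near the 27.7% of all miRNAs, and 5 of 11 without the pools (27.1%). With the animal as a block 1 was called in LAR (2.48%). miR-206-3p, which promotes the differentiation of muscle progenitors, ranged in diaphragm from 7.81 to 112150.0 CPM with a median of 36379.6, and in heart from 5.99 to 4194 CPM with a median of 21.6. Its log2 fold change was -7.49 ± 1.26 (edgeR adjusted p = 8.45e-05), -10.61 ± 0.65 without the pools and -9.37 ± 1.03 in TERM. Without the pools every LAR diaphragm lay above every LAR heart. The other called members were rare arms. They passed the detection filter in diaphragm alone, so their calls are no support for the family. miR-206-5p was at 0 in all 16 hearts and at most 2.41 CPM in diaphragm (edgeR adjusted p = 0.000306), and miR-133b-5p reached 0.112 CPM in heart and 3.24 in diaphragm (adjusted p = 5.31e-06). Both calls were lost with the animal as a block in all libraries (adjusted p = 0.127 and 0.118).

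The abundant arms differed far less. miR-133b-3p, which lies in the same transcript as miR-206, had medians of 16570.2 CPM in heart and 27575 in diaphragm, and a log2 fold change of -0.77 ± 0.54 that did not pass the test (edgeR adjusted p = 0.351). Without the pools the change was -0.87 ± 0.17 and passed (adjusted p = 8.03e-05), but not with the animal as a block (adjusted p = 0.158). miR-133a-3p had medians of 216579 and 266008 CPM and a log2 fold change of -0.26 ± 0.57 (adjusted p = 0.834), and miR-1a-3p, with medians of 45697 and 32416 CPM, one of 0.37 ± 0.57 (adjusted p = 0.723). Without the pools miR-133a-3p passed at -0.37 ± 0.14 (adjusted p = 0.0338) and miR-1a-3p did not (adjusted p = 0.158). In TERM neither was called. The 5′ arm miR-1a-1-5p was lower in heart without the pools (-0.91 ± 0.25, adjusted p = 0.00301) whereas miR-1a-2-5p, from the other miR-1a locus, gave 0.10 ± 0.34 (adjusted p = 0.829). Also not called in all LAR libraries were miR-133a-5p at 0.23, miR-133c at -1.12, miR-1b-3p at 0.57 and miR-1b-5p at 0.05.

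Among the other leading heart miRNAs were both arms of Mir490. miR-490-5p ranged from 1.61 to 111 CPM with a median of 57.1 in heart, and from 0.217 to 133 CPM with a median of 4.03 in diaphragm, a log2 fold change of 2.95 ± 0.56 (edgeR adjusted p = 0.000344) that was 3.78 ± 0.33 without the pools. The other arm, miR-490-3p, was named after its values were seen: it gave 4.06 ± 0.92 (adjusted p = 0.00226), and without the pools 6.03 ± 0.55, with 14.3 to 198 CPM (median 58.0) in heart against 0 to 4.67 CPM (median 0.888) in diaphragm. These levels did not overlap. miR-145a-3p, whose hairpin is known from smooth muscle, gave 1.20 ± 0.27 (adjusted p = 0.00212), and miR-15b-3p 1.62 ± 0.34 (adjusted p = 0.0009, 0.204 with the animal as a block).

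The red cell miRNAs miR-144 and miR-451a, made from 1 locus on chromosome 11, were higher in heart. miR-144-5p ranged from 17.0 to 282 CPM with a median of 43.6 in heart, and from 4.18 to 39.4 CPM with a median of 12.0 in diaphragm, with a log2 fold change of 2.17 ± 0.31 (edgeR adjusted p = 7.08e-06), and in TERM of 2.83 ± 0.31. miR-451a ranged from 23464 to 273715 CPM with a median of 44662 in heart, and from 5035 to 60398 CPM with a median of 19497 in diaphragm, with 1.51 ± 0.28 (adjusted p = 0.000306, 0.132 with the animal as a block and 0.00114 with the block and without the pools). The ranges of both overlapped between the tissues. Of the 7 tested miRNAs listed as red cell markers 2 were higher in heart and 0 in diaphragm (7.52% and 9.01% of all miRNAs), and 1 in heart with the animal as a block (3.1%). The list was split without the pools, with 3 higher in heart and 2 in diaphragm (19.2% and 22.8% of all miRNAs), and TERM without the pools gave 3 and 2 (11.2% and 27.1%). In all LAR libraries the summed level of the list was 24617 to 277229 CPM in heart and 6018 to 62805 CPM in diaphragm. The part of blood left in the tissue was not tested.

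miR-547-3p and miR-201-5p belong to a large miRNA cluster of the X chromosome between Slitrk2 and Fmr1 that is best known from testis. miR-547-3p ranged from 3.23 to 130.1 CPM with a median of 70.0 in heart, and from 2.94 to 29.5 CPM with a median of 13.4 in diaphragm. Its log2 fold change was 2.23 ± 0.36 (edgeR adjusted p = 5.65e-05), 2.40 ± 0.27 without the pools and 2.21 ± 0.32 in TERM, and that of miR-201-5p was 1.70 ± 0.36 (adjusted p = 0.00108). The cluster was then taken as a whole, a group chosen after these values were seen. These 2 made up most of its summed level, a median of 88.0% in LAR heart and 87.3% in LAR diaphragm without the pools, so that sum repeats their values. Of the other 38 miRNAs of the cluster 16 passed the filter on low counts in LAR, and 6 of them were called higher in heart and 0 in diaphragm (7.52% of all miRNAs were higher in heart). Without the pools 13 of 15 were (19.2%), in TERM 12 of 16 (6.32%), and in TERM without the pools 14 of 16 (11.2%). These counts describe the members that passed and are no support for the cluster, because the filter can be passed in heart alone. In LAR without the pools 10 of the 15 did not pass it in diaphragm, 11 had a diaphragm median of 0, and 11 had a heart median under 1 CPM. The heart libraries also held more miRNA counts, a median of 6039035 against 3660936 in diaphragm, and the part of depth was not tested. Blocking on the animal left 0 of 14 called in LAR by edgeR (3.1%), with 7 at an unadjusted p under 0.05, and 11 of 15 in TERM (5.72%).

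The imprinted H19 and Igf2 locus on chromosome 7 was higher in diaphragm. H19 is a maternally expressed long non-coding RNA that carries miR-675, and Igf2, next to it, is a paternally expressed growth factor gene that carries miR-483. miR-483-5p ranged from 0 to 145 CPM with a median of 52.2 in diaphragm, and from 0.230 to 6.83 CPM with a median of 3.09 in heart, a log2 fold change of -3.87 ± 0.66 (edgeR adjusted p = 9.13e-05). Without the pools every diaphragm lay above every heart, with a change of -4.39 ± 0.34. The other arms were named after their values were seen. miR-675-5p gave -5.09 ± 0.69 (adjusted p = 5.31e-06), miR-675-3p -3.49 ± 0.54 (adjusted p = 2.52e-05) and miR-483-3p -2.12 ± 0.45 (adjusted p = 0.00124), so all 4 arms were higher in diaphragm. In TERM 4 of 4 arms were (27.7% of all miRNAs), and with the animal as a block 4 in LAR (2.48%) and 3 in TERM (9.69%). In the LAR libraries of VGC alone 3 arms were called (1.95%).

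Fragments of H19 itself, counted among the lncRNAs, moved the same way. All 7 H19 transcripts were higher in diaphragm in LAR with all libraries (5% of all lncRNA transcripts were), without the pools (37.6%), with TMM factors (2.53%) and with the animal as a block (3.41%), and in TERM with all libraries (34%) and without the pools (34.4%). In the LAR libraries of VGC alone 4 of 7 were (0.375%). Their median log2 fold change was -4.47 in LAR, -6.51 without the pools and -7.08 in TERM, against -0.55 over all lncRNAs of LAR. The transcripts are of 1 gene and overlap, so they are not independent (GRCm38, GENCODE M21, chr7:142575529-142578143, minus strand). Their summed level ran from 169.5 to 798 CPM with a median of 312 in LAR diaphragm without the pools and from 2.27 to 9.70 CPM with a median of 5.71 in heart. Every diaphragm thus lay above every heart. With the pools included the lowest diaphragm library was at 0 CPM and the highest heart at 63.4 CPM.

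The second imprinted domain, Dlk1-Dio3 on chromosome 12, holds a long chain of maternally expressed miRNAs and C/D box snoRNAs. Of its 94 tested miRNAs, 19 were higher in diaphragm (9.01% of all miRNAs) and 0 in heart, with a median log2 fold change of -0.61. Without the pools 44 of 87 were higher in diaphragm (22.8% of all). In TERM 65 of 92 were (27.7%), and without the pools 44 of 82 (27.1%). Within the paired mice 2 of 94 were called in LAR (2.48%) and 17 of 91 in TERM (9.69%). The members of smallest adjusted p were miR-673-3p (-3.40 ± 0.49, edgeR adjusted p = 7.08e-06), miR-540-3p (-2.27 ± 0.42, 0.000306) and miR-299a-5p (-1.83 ± 0.35, 0.00036). miR-540-3p lay at 16.8 to 55.8 CPM (median 32.0) in diaphragm and 1.36 to 8.52 CPM (median 5.04) in heart without the pools, with no overlap. miR-381-5p, from the same domain, gave -2.33 ± 0.53 (adjusted p = 0.00229). The calls of miR-299a-5p and miR-381-5p were lost with the animal as a block (adjusted p = 0.0515 and 0.0669).

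The snoRNAs of that domain, between Meg3 and Mirg (GRCm38, chr12:109541001-109749460), followed its miRNAs. Of 14 tested, 11 were higher in diaphragm and 0 in heart, and without the pools 14 of 14. In TERM the counts were 7 and 11 of 14. Over all snoRNAs 23.8% were higher in LAR diaphragm, 30.8% without the pools, and 27.1% and 16.8% in TERM. Blocking on the animal left 5 called in LAR (6.34% of all snoRNAs) and 0 in TERM (1.53%). Without the pools their summed level ran from 2296 to 3962 CPM with a median of 2989.5 in LAR diaphragm and from 806 to 1943 CPM with a median of 1023 in heart, with no overlap. The counts for the host transcripts depended on the scaling. With the class total 22 of 63 transcripts of Rian, the snoRNA host, were higher in LAR diaphragm (5% of all lncRNAs), and without the pools 48 of 63 (37.6%). In LAR 0 of 63 were called with TMM factors (2.53%) and 0 of 61 with the animal as a block (3.41%). Of these 0 and 39 had an unadjusted edgeR p under 0.05. By DESeq2 0 were called with all libraries (3.71%), with 22 at an unadjusted p under 0.05 and 3 without an adjusted p. Without the pools DESeq2 called 22 (7.2%). With TMM factors in that set 0 of 63 were called, with 23 at an unadjusted edgeR p under 0.05. Of all 3742 lncRNAs 154 were then higher in diaphragm. In TERM 56 of 65 were higher in diaphragm (34%) and without the pools 52 of 63 (34.4%). With TMM factors the TERM count was 0 in all libraries (3.77%) and 28 of 63 without the pools (11.6%), and with the block 28 of 65 (18.2%). By DESeq2 the TERM count was 0 of 65 in all libraries (4.32%) and 8 of 63 without the pools. Of all 4252 lncRNAs, 665 without an adjusted p, 373 were then higher in diaphragm. Of the 6 Meg3 and 11 Mirg transcripts 0 and 0 were called in LAR, and without the pools 1 of 6 and 4 of 10 were higher in diaphragm, beside 37.6% of all lncRNAs. In TERM 6 of 10 and 7 of 9 were higher in diaphragm (34%), and without the pools 5 of 7 and 4 of 9 (34.4%). With TMM factors these TERM counts were 1 and 0 (3.77%), with 2 and 1 at an unadjusted edgeR p under 0.05, and without the pools 1 and 0 (11.6%). By DESeq2 they were 0 and 0 (4.32%), with 3 and 1 transcripts without an adjusted p, and with the animal as a block 3 and 1 (18.2%). The direction of Mirg turned without the pools with another scaling. By DESeq2 3 of 10 LAR transcripts (15.5% of all) and 2 of 9 TERM transcripts (14.6%) were then higher in heart and 0 and 0 in diaphragm, and with TMM factors 1 in LAR heart (11.8%). These snoRNA and host groups were chosen after the values were seen.

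miRNAs of the Hox clusters, which mark the position of a tissue along the body axis, gave different counts with and without the 11 pools. With all LAR libraries 1 of 10 was called (9.01% of all miRNAs in this direction), miR-615-5p, higher in diaphragm at -2.55 ± 0.81 (edgeR adjusted p = 0.0283). Without the pools 7 of 8 were higher in diaphragm (22.8% of all). In TERM 7 of 10 were (27.7%), and 6 of 8 without the pools (27.1%). In the paired mice miR-615-5p was not called (adjusted p = 0.0515) and miR-615-3p was (0.00176). miR-615-3p ranged from 1.68 to 203 CPM with a median of 49.8 in diaphragm, and from 0 to 330.3 CPM with a median of 0.950 in heart, where the high values were those of the pools. Its log2 fold change was -1.77 ± 1.20 in all libraries (adjusted p = 0.331), -6.26 ± 0.51 without the pools (adjusted p = 8.64e-12) and -4.82 ± 0.50 in TERM. miR-10b-5p gave -0.56 ± 0.90 in all libraries (adjusted p = 0.734) and -2.07 ± 0.27 without the pools (adjusted p = 2.27e-07).

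For 3 Hox miRNAs the sign turned. miR-10a-5p went from 0.58 ± 0.69 with all libraries (edgeR adjusted p = 0.627) to -1.44 ± 0.30 without the pools (adjusted p = 0.000208), and was -1.31 ± 0.32 in TERM. miR-10a-3p and miR-196a-5p turned in the same way, to -1.22 and -2.40. In the pools, heart libraries reached 10313 CPM of miR-10a-5p and 2668 CPM of miR-196a-5p, against at most 467 and 5.45 outside them. miR-196b-5p, from the HoxA cluster, was the member without a call in either set (0.61 ± 0.42 without the pools, adjusted p = 0.259), and miR-10b-3p passed without the pools (-1.66 ± 0.31). The passenger arms miR-196a-1-3p and miR-196a-2-3p reached at most 20.4 CPM across the LAR libraries.

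The remaining leading diaphragm miRNAs were miR-193b-5p, miR-6240, miR-5126, miR-709 and miR-150-5p. miR-193b-5p, from a hairpin known from brown fat, ranged from 0.846 to 43.2 CPM with a median of 14.6 in diaphragm, and from 0.499 to 7.82 CPM with a median of 2.90 in heart (-2.27 ± 0.43, edgeR adjusted p = 0.000349). Without the pools the tissues did not overlap. miR-6240 gave -2.62 ± 0.48 (adjusted p = 0.000287), miR-5126 -3.36 ± 0.63 (0.000344) and miR-709 -2.36 ± 0.51 (0.00126). miR-150-5p, a miRNA of mature lymphocytes, had medians of 7469 CPM in diaphragm and 3153 in heart, a change of -1.25 ± 0.30 (adjusted p = 0.00385). That call was lost with the animal as a block (adjusted p = 0.0515) but held with the block and without the pools (4.04e-05). When scaled to the total of the 7 classes it was not called either.

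Among the broadly expressed families the miR-30 family, abundant in cardiomyocytes, had 6 of 11 members higher in heart (7.52% of all miRNAs) and 0 in diaphragm, with a median log2 fold change of 0.79. Without the pools 10 were higher in heart (19.2%), in TERM 5 (6.32%) and in TERM without the pools 9 (11.2%). The members of smallest adjusted p were miR-30d-3p (1.21 ± 0.33, edgeR adjusted p = 0.00974), miR-30b-3p (0.79 ± 0.23, 0.0164) and miR-30e-3p (1.08 ± 0.32, 0.0185). Blocking on the animal left 2 of the family called (3.1%). The miR-378, miR-193, miR-365 and miR-210 list, tied to oxidative metabolism and hypoxia, had 5 of 13 higher in diaphragm (9.01% of all miRNAs) and 1 higher in heart (7.52%), and in TERM 7 (27.7%) and 1 (6.32%) of 14. Besides miR-193b-5p, miR-365-3p (-1.34 ± 0.35, adjusted p = 0.00843) and miR-193b-3p (-1.48 ± 0.43, 0.0178) were higher in diaphragm, and both calls were lost when miRNAs were scaled to the total of the 7 classes and with the animal as a block (adjusted p = 0.0515 and 0.339).

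The other families were given by count. For miR-23, miR-24 and miR-27, 4 of 11 were higher in heart (7 without the pools, where 1 was higher in diaphragm), and for the miR-15, miR-16 and miR-195 family 4 of 16 (7 of 15). Of the miR-29 and miR-21 list, tied to fibrosis, 0 of 9 were called, and without the pools 5 were higher in heart and 1 in diaphragm. For let-7, 1 of 23 was higher in heart, and without the pools 6 and 4 were higher in heart and diaphragm. In the miR-17-92 clusters 1 of 28 was higher in heart (8 of 25 without the pools). Over all miRNAs 7.52% were higher in heart and 9.01% in diaphragm with all libraries, and 19.2% and 22.8% without the pools. The lists for miR-99, miR-100 and miR-125 (2 and 1 of 11), miR-181 (2 and 0 of 10), miR-221 and miR-222 (0 and 0 of 4) and miR-132 and miR-212 (0 and 0 of 4) are given as the members higher in heart and in diaphragm.

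Markers of other cell types that either muscle holds were counted next. For smooth muscle, 3 of 5 were higher in heart (3 of 5 without the pools, and 2 of 5 in TERM), beside 7.52%, 19.2% and 6.32% of all miRNAs, led by miR-145a-3p, miR-143-3p (0.94 ± 0.27, edgeR adjusted p = 0.0148) and miR-145a-5p (0.60 ± 0.19, 0.0293), and the summed level of the list was 22552 to 56207 CPM in heart and 9034 to 60906 CPM in diaphragm. For endothelium, 2 of 4 were higher in heart (2 of 4 without the pools, and 7.52% and 19.2% of all miRNAs), both arms of miR-126a, miR-126a-5p by 0.95 ± 0.21 (adjusted p = 0.00169) and miR-126a-3p by 0.84 ± 0.27 (0.0295), and with the animal as a block neither was called (0.129 and 0.101). The other members, arms of miR-126b, had changes below 0 in LAR and were not called there (miR-126b-3p at -1.42 ± 0.60, adjusted p = 0.0984), so the median of the list was -0.29. In TERM 1 of the 4 was higher in heart and 2 in diaphragm (6.32% and 27.7% of all miRNAs), and without the pools 2 and 2 (11.2% and 27.1%). Summed, the list gave 10954 to 51000.5 CPM in heart and 2519.6 to 28736 CPM in diaphragm. Of the leukocyte markers 1 of 8, miR-155-5p (0.64 ± 0.21, adjusted p = 0.0334), was higher in heart and the 2 arms of miR-150 in diaphragm (7.52% and 9.01% of all miRNAs), with summed levels of 2241 to 10666 CPM and 1787 to 16148 CPM. In TERM 2 of 7 were higher in diaphragm, near the 27.7% of all miRNAs, and without the pools 5 (27.1%), while with the animal as a block 0 of 7 were called in LAR and 0 of 7 in TERM by edgeR, with 1 and 2 at an unadjusted p under 0.05. Of the 6 fibroblast-associated arms of miR-199 and miR-214, 1 was called with all LAR libraries, miR-214-3p, higher in diaphragm, with a list median of 0.30. Without the pools 3 were higher in heart and 1 in diaphragm (19.2% and 22.8% of all miRNAs), with 5 of 6 changes above 0 and a median of 0.54, and in TERM 0 and 0 were called. The part these cell types had in the comparison was not tested.

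Markers of tissues that neither sample should hold were high in some libraries, so they were counted too. Liver markers (miR-122 and miR-802) were higher in diaphragm for 4 of 4 with all libraries and 1 without the pools, and pancreas markers for 6 of 7 and 1 of 5, beside 9.01% and 22.8% of all miRNAs. In TERM 4 of 4 liver and 6 of 6 pancreas markers were higher in diaphragm (27.7%), and without the pools 4 of 4 and 0 of 5 (27.1%). With the animal as a block 0 of 4 liver markers were called in LAR with all libraries (2.48%), 2 in LAR without the pools (13.5%) and 4 in TERM (9.69%), all higher in diaphragm. The summed liver list was 32.1 to 49383 CPM in LAR diaphragm and 26.4 to 4315 CPM in heart, and without the pools 32.1 to 7276 CPM and 26.4 to 4315 CPM. In TERM without the pools it still ran 488 to 184180.0 CPM in diaphragm, and the leukocyte list 4568 to 190924 CPM. Epithelial markers gave 0 of 14 calls with all LAR libraries and 10 of 11 higher in diaphragm without the pools (22.8% of all miRNAs), at 258 to 5228 CPM against 159 to 1209.6 CPM in heart. In TERM leaving out the pools had the opposite effect on that count, 12 of 14 with all libraries (27.7%) and 2 of 13 without the pools (27.1%). Neural markers gave 0 of 16 and 4 of 14 higher in heart, and kidney and gut markers 3 of 7 and 3 of 7 higher in heart, beside 7.52% and 19.2% of all miRNAs. In TERM both lists had calls in diaphragm, 11 of 17 neural and 4 of 6 kidney and gut markers (27.7%), and without the pools 6 of 15 and 4 of 6 (27.1%), with 0 and 2 in heart. In LAR heart the neural list reached 50604 CPM with all libraries and 722 CPM without the pools.

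The direction was then looked up in the TERM mice, which share no animal with LAR. Of the 81 miRNAs higher in LAR heart, 79 were tested in TERM, 71 had the same sign (28.7% of all TERM miRNAs did) and 45 were called the same way (6.32% of all). Of the 97 higher in LAR diaphragm, 93 were tested, 92 had the same sign (71.3% of all) and 81 were called (27.7% of all). 5 heart miRNAs were called the opposite way in TERM, miR-448-3p, miR-448-5p, miR-1264-5p, miR-1298-3p and miR-879-3p. Without the pools no miRNA was called in opposite directions: 159 of 179 heart miRNAs and 204 of 210 diaphragm miRNAs kept their sign (34.9% and 65.1% of all TERM miRNAs had it), and 88 and 155 were called in TERM too (11.2% and 27.1% of all). Some of the 11 pools held libraries of LAR and some of TERM, as counted above.

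**Figure D3:**
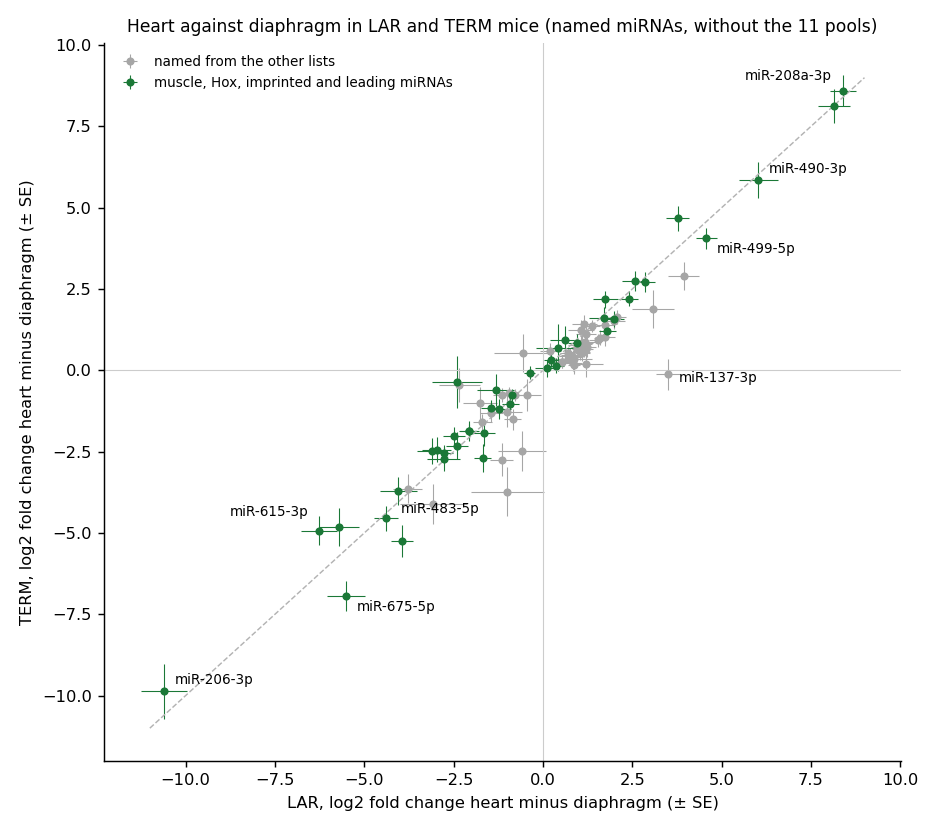
Log2 fold change of heart minus diaphragm in TERM (y axis) against LAR (x axis), both without the 11 pools, for the named miRNAs; miR-206-5p and miR-133b-5p, at or near 0 in heart, are left out, bars are standard errors and the dashed line marks equal change. miR-208a-3p and miR-206-3p sit at the 2 ends near the line, and miR-137-3p, at 3.49 in LAR and -0.13 in TERM, lies below it.

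Whether the contrast itself differed between LAR and TERM was tested as an interaction. With all libraries 96 of 1165 miRNAs differed (8.24%), 95 of them with a lower heart minus diaphragm difference in TERM, and without the pools 9 of 1048 (0.859%). Of these 9, 8 had the lower difference in TERM: miR-137-3p, miR-12191-3p, miR-124-3p, miR-9-5p, miR-138-5p, miR-551b-3p, miR-9-3p and miR-511-3p. miR-137-3p, a neuronal miRNA, differed most, by -3.84 on the log2 scale (edgeR adjusted p = 9.34e-06): it was at 5.46 to 23.4 CPM in LAR heart and at 0 to 2.91 in LAR diaphragm, with no overlap, but at 0.929 to 55.4 in TERM diaphragm. The brain miRNA miR-9-5p likewise separated the LAR tissues (103 to 183 against 5.21 to 45.6 CPM) and reached 621 CPM in TERM diaphragm. The remaining one, with a higher difference in TERM, was miR-200b-3p, of epithelia (3.59, adjusted p = 0.0396). The summed neural list without the pools was 309.5 to 3887 CPM in TERM diaphragm and 203 to 681 CPM in LAR diaphragm, and its part in these differences was not tested. The day of death, the anaesthetic and the freezing of the carcass differed together between LAR and TERM and cannot be told apart.

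Housing and age were tested the same way in LAR, and neither moved the contrast of any miRNA past the threshold of edgeR's test. For HGC against VGC 0 of 1077 (0%) were called, with 95 at an unadjusted p under 0.05 (0 of 946 and 59 without the pools), and for 3 against 8 months 0 of 1077 with 172 (0 of 946 and 63). 1 miRNA looked different and was picked for it after its values were seen. Without the pools miR-208b-3p in LAR heart was at 32.8 to 61.0 CPM in the 5 HGC and at 97.0 to 152 CPM in the 7 VGC libraries, with no overlap. The log2 difference, VGC minus HGC, was 1.30 ± 0.27, with edgeR unadjusted p = 8.18e-05 and adjusted p = 0.0679, so it did not pass. Leaving out each of the 12 libraries in turn gave 1.16 to 1.45, with adjusted p from 0.044 to 0.249, and it passed in 1 of the 12, the fit without HGC replicate 12. With all libraries it was 0.86 (adjusted p = 0.661), and the tissue by housing interaction without the pools was 1.29 (adjusted p = 0.656). In TERM heart the ranges overlapped, 43.6 to 72.5 and 46.3 to 109 CPM, with a difference of 0.29 (adjusted p = 0.846).

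**Figure D4:**
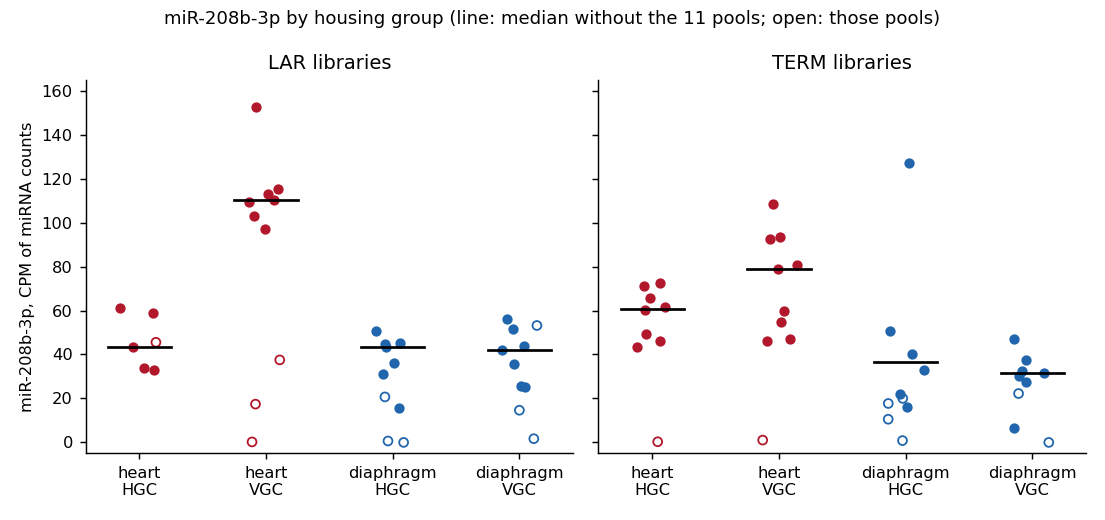
miR-208b-3p in CPM of miRNA counts (y axis) by tissue and housing group, with LAR on the left and TERM on the right; open points are libraries of the 11 pools and the line is the median without them. In LAR heart the filled HGC points all lie below the filled VGC points, and in TERM heart they overlap.

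Fragments of transfer RNAs, which carry amino acids to the ribosome, differed by isotype. Of 408 tRNA genes, 103 were called (25.2%), 4 higher in heart (0.98%) and 99 higher in diaphragm (24.3%), and without the pools 177 (43.4%). The median log2 fold change was -0.35, and with TMM factors 159 were called and the heart share rose from 3.88% to 32.7%, and by DESeq2 to 34.9% of 166. Cysteine tRNAs were the largest diaphragm group, 44 of 54, 54 without the pools (36.3% of all tRNAs) and 50 in TERM (22.5%), although the 54 genes held only 22 distinct rows of counts. Alanine tRNAs followed with 28 of 34, and 19 in TERM. The named one, tRNA-Cys-GCA-24-1, whose counts were nearly those of tRNA-Cys-GCA-9-1 and tRNA-Cys-GCA-14-1, ranged from 15.3 to 600.5 CPM with a median of 106 in diaphragm, and from 9.11 to 73.0 CPM with a median of 23.4 in heart (-2.21 ± 0.37, edgeR adjusted p = 6.18e-06). On the heart side stood tRNA-Gly-GCC-1-1, tRNA-Gly-GCC-1-2 and tRNA-Gly-GCC-1-3, 3 genes with identical counts, so their reads could not be assigned to 1 of them. They ranged from 1429 to 11096 CPM with a median of 8016 in heart, and from 915 to 5821 CPM with a median of 1936 in diaphragm (1.61 ± 0.25, adjusted p = 5.88e-06, and 1.95 ± 0.20 in TERM). Without the pools every heart lay above every diaphragm, as for 0.735% of all tRNA genes. In the paired mice 55 tRNA genes were called (13.6%).

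Small nucleolar RNAs guide chemical modification of other RNAs, and 453 of 923 were called in LAR (49.1%), 233 higher in heart (25.2%) and 220 in diaphragm (23.8%). That split depended on the tool and the scaling. With the total of the 7 classes 69.0% of calls were higher in heart, against 51.4% with the class total. DESeq2 called 331, 22 higher in heart and 309 in diaphragm, but gave no adjusted p for 198 snoRNAs, and without the pools, with 1 such snoRNA, it called 231 and 373. Within housing groups the heart calls were 119 in HGC alone and 1 in VGC alone. Most heart calls came from 1 imprinted region, Snhg14 on chromosome 7 (GRCm38, chr7:59307924-59904848), whose paternally expressed transcript carries long repeats of C/D box snoRNAs best known from neurons. In the Snord116 stretch all 18 of 18 transcripts (5 distinct rows of counts) were higher in LAR heart, with a median log2 fold change of 2.48, 2.49 without the pools, and 17 were called with the animal as a block (9.2% of all snoRNAs were). In the rest of Snhg14, 181 of 189 (80 distinct rows) were higher in heart, 178 of 184 without the pools (30.7% of all snoRNAs), and 41 with the block. With all libraries DESeq2 gave no adjusted p for 17 of the 18 and 180 of the 189, and called 1 and 6 higher in heart (3.03% of the snoRNAs with an adjusted p). Without the pools DESeq2 called 18 of 18 and 175 of 184 higher in heart (25.7%). By edgeR 18 and 89 were called in HGC alone (14.1% of all) and 0 and 0 in VGC alone (0.114%). The median log2 fold changes were 1.92 and 1.71 in HGC and 2.79 and 2.95 in VGC. In VGC alone 18 of the 18 and 53 of the 189 had an unadjusted edgeR p under 0.05, beside 268 of all 877 snoRNAs. Of the 702 snoRNAs outside the imprinted regions 34 were higher in heart and 209 in diaphragm. The 2 regions were chosen after these values were seen.

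In TERM the direction depended on the pools and on the terms of the fit. With all TERM libraries, 0 transcripts of the Snord116 stretch were higher in heart (4.04% of all snoRNAs were) and 0 in diaphragm (median -1.41) and 137 of 189 in the rest of Snhg14 were higher in diaphragm (27.1% of all, median -2.60). Without the pools 17 of 18 and 41 of 187 were higher in heart (11.9% of all) and 0 and 0 in diaphragm (16.8%), with medians of 1.06 and 0.12. With the animal as a block edgeR called 0 of the stretch and 0 of the rest in either direction, and 0 and 0 had an unadjusted p under 0.05. Over all snoRNAs 1.31% were then higher in heart and 1.53% in diaphragm. The 137 diaphragm calls were thus all lost with the block, and the medians were 1.06 and 0.55. With the plate as a term 0 and 0 were called, with 0 and 1 at an unadjusted p under 0.05 and medians of 0.56 and -0.05. DESeq2 gave no adjusted p for any of the 18 and 189 with all TERM libraries. The pools held the extreme libraries: the summed level of the rest of Snhg14 reached 65787 CPM in a LAR heart and 82525 CPM in a TERM diaphragm library. Without them, it ran from 730.2 to 2087 CPM with a median of 1118 in LAR heart and from 105 to 541 CPM with a median of 193 in LAR diaphragm, with no overlap, while in TERM it ran from 474 to 1395 CPM with a median of 1050.5 in heart and from 57.3 to 2908 CPM with a median of 510.0 in diaphragm. The TERM diaphragms thus spread across the range of the hearts. The summed neural miRNA list, given above, was also higher in some TERM diaphragms than in any LAR diaphragm, and its part was not tested.

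**Figure D5:**
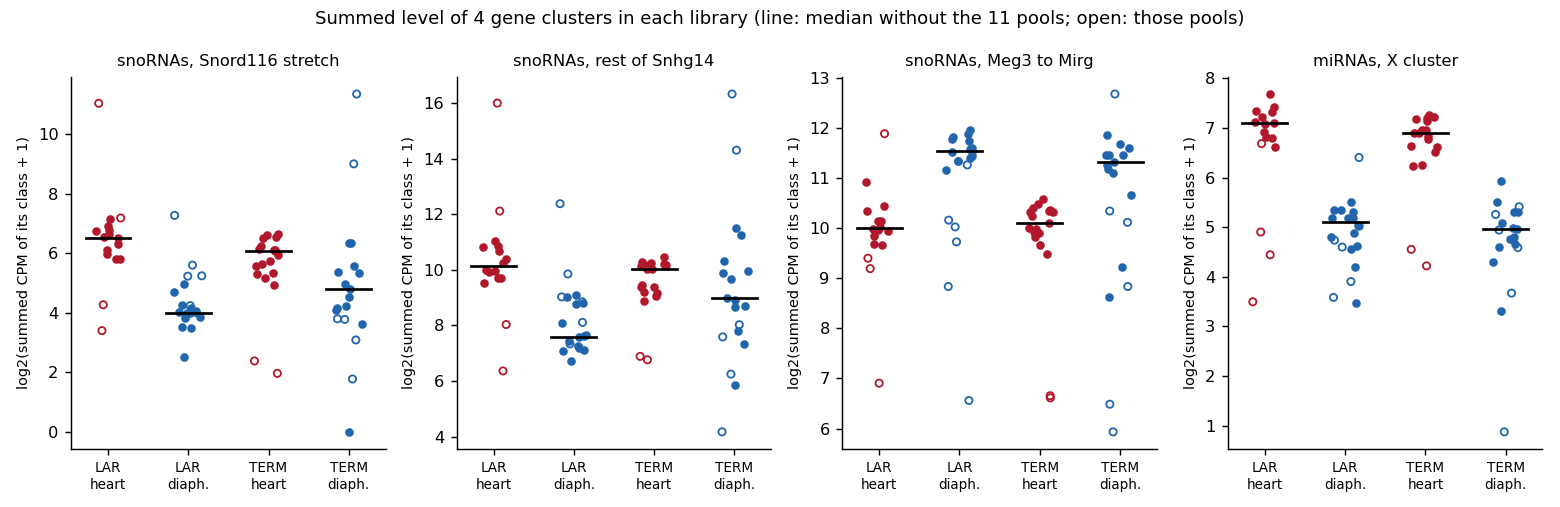
Summed level of 4 gene clusters as log2(summed CPM of the class + 1) in each heart (red) and diaphragm (blue) library of LAR and TERM; open points are libraries of the 11 pools and the line is the median without them. Among filled points the Snhg14 snoRNAs and the X-linked miRNAs, a sum led by miR-547-3p and miR-201-5p, are higher and the Meg3 to Mirg snoRNAs lower in LAR heart, and the TERM diaphragm points of both Snhg14 panels spread widely.

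Outside these regions the leading snoRNAs were Gm23734 and Snord7 in heart and Gm22362 and Gm25203 in diaphragm. Snord7, listed under 2 transcripts with identical counts, ranged from 399 to 1330.5 CPM with a median of 975 in heart, and from 157 to 975 CPM with a median of 357 in diaphragm (1.06 ± 0.23, edgeR adjusted p = 0.000825, and 1.04 ± 0.19 in TERM). Gm23734 gave 1.70 ± 0.26 (adjusted p = 0.000144), Gm22362 -1.75 ± 0.32 (0.000825) and Gm25203, listed under 2 transcripts with nearly equal counts, -1.33 ± 0.32 (0.00156), and without the pools Gm22362 was at 19.0 to 49.2 CPM (median 29.9) in heart and 82.7 to 188 CPM (median 132) in diaphragm, with no overlap (0.667% of all snoRNAs lay below in this way). All were called again in TERM and with the animal as a block.

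Small nuclear RNAs, the RNA parts of the spliceosome, took 10.5% of the counts of a library in LAR heart and 8.16% in diaphragm with all libraries (permutation adjusted p over the 7 classes = 0.183), and 9.98% and 7.41% without the pools, where the class was thus higher in heart (permutation adjusted p = 0.0317). In TERM neither comparison of this share passed (permutation adjusted p = 0.441 and 0.967). Scaled to that class total, most of the single snRNAs called were higher in diaphragm. Of 837, 475 were called (56.8%), 464 of them higher in diaphragm (55.4% of all), and the median log2 fold change over all tested snRNAs was -0.88. By DESeq2 44.4% of 401 calls were higher in heart, against 2.32% by edgeR. Many are copies of a few genes. Without the pools 542 were called (65.6%), 3.69% of these calls higher in heart, and with TMM factors in that set 31.4% of 573. In TERM without the pools 20.0% of 539 calls were higher in heart with the class total, and with TMM factors 55.1% of 321, so the split turned there. The leading snRNA copies were Gm23054 (-1.51 ± 0.29), Gm25514 (-2.02 ± 0.40) and Gm25630 (-2.32 ± 0.47), each with edgeR adjusted p = 0.00142 and each called higher in diaphragm in TERM (54.9% of all). Gm25630 ranged from 2.86 to 482 CPM with a median of 86.7 in diaphragm, and from 8.57 to 50.2 CPM with a median of 19.6 in heart.

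Sequences listed as piRNAs, a class known from the germ line, often match other small RNAs in somatic tissue, and their identity was not checked here. Of 951, 264 were called (27.8%), 40 higher in heart (4.21%) and 224 in diaphragm (23.6%), with a median log2 fold change of -0.65. With TMM factors 113 were called and the heart share moved from 15.2% to 44.2%, and by DESeq2 to 33.8% of 145. In heart oocyte_piRNA2739 led (1.55 ± 0.31, edgeR adjusted p = 0.000686, and 2.61 ± 0.28 in TERM), with piR-134752 (1.27 ± 0.27) and piR-1889 (1.69 ± 0.36). In diaphragm oocyte_piRNA2941 led (-2.66 ± 0.43, adjusted p = 8.4e-05), at 322 to 1448 CPM (median 539.8) against 50.9 to 189.7 CPM (median 61.3) in heart without the pools. These ranges did not overlap, as for 1.65% of all piRNAs in this direction. piR-979 (-2.05 ± 0.37) and piR-980 (-1.58 ± 0.30) followed.

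Fragments of 246 of 4344 lncRNA transcripts were called (5.66%), 29 higher in heart (0.668%) and 217 in diaphragm (5%), and without the pools 1519 of 3742 (40.6%). The median log2 fold change was -0.55, and with TMM factors 330 were called and the heart share moved from 11.8% to 66.7%, and by DESeq2 to 57.0% of 298. Besides H19, the transcripts described here were higher in heart, although 120 transcripts met the naming rule given below in diaphragm and 12 in heart. Gm34934 (GRCm38, GENCODE M21, chr14:46866576-46882757, minus strand) ranged from 0.129 to 60.0 CPM with a median of 18.5 in heart, and from 0 to 19.2 CPM with a median of 0.583 in diaphragm (3.61 ± 0.65, edgeR adjusted p = 0.000603, and 3.64 ± 0.47 in TERM). 5330434G04Rik gave 1.83 ± 0.34 (adjusted p = 0.000708, 0.0765 with the animal as a block). Gm49890 gave 1.66 ± 0.30 in LAR (adjusted p = 0.000642) and 0.14 ± 0.39 in TERM (adjusted p = 0.839), and the difference between LAR and TERM was not tested for lncRNAs.

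Ribosomal RNA fragments gave 4 calls of 273 (1.47%), all higher in diaphragm, 142 of 272 without the pools (52.2%), and 0 with the animal as a block, where 73 lay at an unadjusted p under 0.05. In TERM 0 of 274 were called by edgeR, with 33 at an unadjusted p under 0.05 and 7 called by DESeq2. The shares of the classes themselves were compared by a two-sided permutation test of 100000 resamples. miRNAs took 15.8 ± 4.64% (SD, n = 16) of the counts of a LAR heart library and 9.63 ± 4.61% (n = 20) of a diaphragm library (permutation adjusted p over the 7 classes = 0.00231). In TERM the shares were 13.6 ± 4.70% and 8.02 ± 4.10% (n = 19 each, permutation adjusted p = 0.00343). rRNA took 20.4 ± 4.29% in LAR heart and 29.1 ± 11.6% in diaphragm (permutation adjusted p = 0.0283). In TERM the rRNA share differed by -4.38 points, heart minus diaphragm, and did not pass (permutation adjusted p = 0.143), and without the pools by -7.51 points and passed (0.0122). In the 8 paired LAR mice neither share passed the exact sign-flip permutation test (adjusted p = 0.26 for both, with differences of 6.44 points for miRNA and -7.31 for rRNA). With 8 pairs the smallest p that this test can give is 0.00781, or 0.0547 once adjusted for 1 class of the 7, so 1 class alone could not pass. The snoRNA share, 4.28 points higher in heart and higher in all 8 mice, was at that limit. In the 18 paired TERM mice the miRNA share passed that test, with a difference of 5.41 points (permutation adjusted p = 0.0107), and the rRNA share did not (-4.39 points, 0.16). The lncRNA share was 4.18 points higher in TERM heart (permutation adjusted p = 0.0228), 4.80 points without the pools (0.00392) and 4.14 points in the paired mice, where it did not pass (0.0751). In LAR it differed by 2.19 points and did not pass (permutation adjusted p = 0.22). The shares of both tissues overlapped.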

How the data were processed

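Small RNA libraries of whole heart and diaphragm were sequenced by the authors on a BGISEQ instrument. The deposited miRNA table holds estimated counts made with miRMaster 2.0 (GRCm39, miRBase 22.1), of which 0.780% were not whole, and they were rounded before testing. The deposited tables of the other 6 classes hold whole counts per annotated feature, not normalized by the authors, and many copies of a repeated gene have identical counts. Those 6 tables hold 0 written zeros, and their 3060768 empty cells in the libraries used were read as a count of 0. Tables of 2 further classes were not used, and 0 columns were left unmapped. Strand use in counting is not given in the sources used here.

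Features with at least 5 counts in at least 10% of the libraries of 1 tissue and housing group were tested with edgeR 4.0.16 (R 4.3.3, quasi-likelihood F test, class total as library size, housing and age as covariates), with Benjamini-Hochberg adjustment within a class and a threshold of 0.05. The script was tested on simulated miRNA counts in which abundant miRNAs varied little and did not differ between tissues. That test therefore says nothing about the choice of scaling. Alternatives were the fit without 11 pools, TMM factors, the total of 7 classes, DESeq2 1.42.0, Wilcoxon's test, other filters, fewer covariates, a robust fit, each housing group alone and the animal as a replicate block, and, chosen after the data were seen, the plate as a term the pools left out together with TMM factors, DESeq2 or the block, and single libraries left out for miR-208b-3p between housing groups. Class shares used permutation tests (scipy 1.17.1).

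The labels give the animal, so the block pairs tissues of 1 mouse: 8 mice in LAR and 18 in TERM. Within animals the deviations of the tissues from their group means correlated between -0.29 and 0.42 in LAR, over 0.1 in 5 of 8, and over 0.1 in 7 of 18 in TERM. Libraries of 1 tissue come from separate mice per the labels.

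Members, lists and pools were chosen with earlier results of these data known. Named were the detected myosin-hosted, miR-1, miR-133, miR-206 and Hox miRNAs, 3 Dlk1-Dio3 miRNAs, and the features of smallest adjusted p with a log2 fold change beyond 1, at least 10 CPM in the higher tissue and the same call without the pools, 10 miRNAs and 3 features of each other class per direction, with up to 3 members of the other lists. Sequences and hairpin positions are from RefSeq (GRCm38.p6), matched for 86 of 105 named miRNAs, and other positions from GENCODE M21 (GRCm38), whereas the counts were made on GRCm39. Counts of a few repeated genes cannot be assigned to 1 copy: the 408 tRNA genes tested held 224 distinct rows of counts.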

Additional observations from a re-analysis of the deposited data

Results flagged for a closer look

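The contrast between heart and diaphragm differed between LAR and TERM by the test of the difference itself for 96 miRNAs with all libraries and for 9 without the 11 pools. The cause was not tested.

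miR-208b-3p had 1 library far from the others in each of 2 groups. Among the 10 TERM diaphragm libraries of HGC, mouse 11 stood at 127 CPM. Among the 9 TERM heart libraries of HGC, mouse 12 stood at 0.303 CPM. The heart library belonged to the 11 pools and the diaphragm library did not. Chance alone flags about 1 in 20 groups.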

How the results depend on the processing

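Counts of calls that moved by over 1.5 times are given by setting, beside 178, 103, 4, 475, 453, 264 and 246 LAR calls and 372, 129, 0, 555, 285, 220 and 1685 TERM calls in the order miRNA, tRNA and rRNA, then snRNA and snoRNA, then piRNA and lncRNA. Without the pools the counts of calls were in LAR 398 miRNAs, 177 tRNAs, 142 rRNAs, 434 piRNAs, 1519 lncRNAs and in TERM 223 tRNAs, 2 rRNAs, 358 piRNAs. With TMM factors the counts of calls were in LAR 273 miRNAs, 159 tRNAs, 16 rRNAs, 113 piRNAs and in TERM 222 tRNAs, 1 rRNAs, 138 piRNAs, 527 lncRNAs. With the total of 7 classes the counts of calls were in LAR 412 miRNAs, 162 tRNAs, 193 rRNAs, 147 snRNAs and in TERM 218 tRNAs, 218 snRNAs, 866 lncRNAs. By DESeq2 the counts of calls were in LAR 166 tRNAs, 11 rRNAs, 145 piRNAs and in TERM 233 tRNAs, 7 rRNAs, 342 snRNAs, 137 snoRNAs, 641 lncRNAs. By Wilcoxon's test the counts of calls were in LAR 47 tRNAs, 1 rRNAs, 71 piRNAs, 70 lncRNAs and in TERM 41 snoRNAs, 110 piRNAs, 1090 lncRNAs. With edgeR's own filter the counts of calls were in LAR 8 rRNAs and in TERM 243 miRNAs. Without covariates the counts of calls were in LAR 17 rRNAs. With the animal as a replicate block the counts of calls were in LAR 54 miRNAs, 55 tRNAs, 0 rRNAs, 125 snoRNAs, 146 lncRNAs and in TERM 167 miRNAs, 26 snoRNAs, 91 piRNAs, 907 lncRNAs. In HGC alone the counts of calls were in LAR 46 miRNAs, 42 tRNAs, 0 rRNAs, 133 snoRNAs, 0 piRNAs, 10 lncRNAs and in TERM 182 miRNAs, 20 tRNAs, 0 snRNAs, 1 snoRNAs, 19 piRNAs, 184 lncRNAs. In VGC alone the counts of calls were in LAR 27 miRNAs, 0 rRNAs, 34 snRNAs, 21 snoRNAs, 146 piRNAs, 17 lncRNAs and in TERM 120 miRNAs, 14 snoRNAs, 765 lncRNAs. With the plate as a term the counts of calls were in LAR 67 tRNAs, 0 rRNAs, 23 lncRNAs and in TERM 33 snoRNAs. With the block and without the pools the counts of calls were in LAR 33 rRNAs and in TERM 210 miRNAs, 142 snoRNAs. With TMM factors and without the pools the counts of calls were in LAR 402 miRNAs, 226 tRNAs, 84 rRNAs, 594 lncRNAs and in TERM 230 tRNAs, 9 rRNAs, 321 snRNAs, 890 lncRNAs. By DESeq2 and without the pools the counts of calls were in LAR 401 miRNAs, 236 tRNAs, 98 rRNAs, 695 lncRNAs and in TERM 238 tRNAs, 26 rRNAs, 895 lncRNAs. With the block, the paired class shares of LAR differed by 6.44 points for miRNA and by -7.31 for rRNA and of TERM by 4.14 for lncRNA (4.18 and past the threshold without the block), and did not pass (with 8 LAR pairs, 1 class alone could not). Without the pools snRNA (2.57 points) and snoRNA (3.93) of LAR and rRNA (-7.51) of TERM passed. The interaction of LAR and TERM fell from 96 to 9 miRNAs without the pools. The sign turned for miR-10a-3p (-1.22 without the pools, -1.17 with TMM factors too, -1.19 by DESeq2 too), miR-10a-5p (-1.44, -1.36, -1.38 and, with the block, -1.31) and miR-196a-5p (-2.40, -2.37, -2.57 and, with the block, -2.42). Of all values of named features recomputed under an alternative, 1740 kept direction and side of the threshold, 200 lost and 161 gained a call, 11 turned with a call, and 42 changed sign with no call. Values without an adjusted p by DESeq2 are not among these. Single libraries were left out in turn for miR-208b-3p between housing groups and for no other result. Thinly counted arms limit miR-206-5p and miR-133b-5p. The cause of these changes was not tested.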
